A study of Mus musculus with 16 samples.

Results

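The comparison set the transcriptome of CFU-E cells from control mice against that of CFU-E cells with little surface Kit from mice lacking *Mettl3*, and asked which functional classes of genes differed between the groups. It used 6 of the 16 samples of the series, all the RNA-seq libraries of these cells, and all 15386 genes of their table, of which 11979 had enough counts to be tested. The control libraries (n = 3) came from *EpoR-tdTomato-Cre* mice, and those labelled as Kit-low CFU-E with a *Mettl3* knockout (n = 3, called CFU-E Kit-lo from here on) from *Mettl3* fl/fl; *EpoR* Cre/- mice. All mice carried the Cre, were on the C57BL/6 background and, per the study's methods, were males and females 10 to 16 weeks old. The Cre is driven from the erythropoietin receptor locus, so it recombines in erythroid cells and also in macrophages of the erythroblastic island. The sort took live bone marrow cells that carried CD71 and Kit but lacked lineage antigens, CD16/32, CD41, CD34 and Sca1, and in the knockout the cells with low Kit were taken. The groups therefore differed in genotype and in the Kit gate at the same time, and what belongs to either cannot be told apart. The labels do not say whether replicates came from separate animals, so p-values measure the spread between these samples, which may be technical.

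CFU-E cells are the last erythroid progenitors that form colonies before the proerythroblast. They depend on erythropoietin, and as they mature they lose Kit and the transcription factor Gata2, divide quickly, and begin to build the globin, heme and membrane of the red cell. Mettl3 is the catalytic subunit of the complex that writes N6-methyladenosine (m6A) on mRNA, a mark that reader proteins use to set the splicing, translation and decay of the transcript.

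The libraries held 17429262 to 21329242 estimated counts, and levels are given as CPM, the counts scaled to a common library total with TMM factors. The p-values are from the quasi-likelihood test of edgeR, Benjamini-Hochberg adjusted over the 11979 genes. Genes called higher or lower (DEGs) changed 1.5-fold or more with an adjusted p under 0.05, and "rose" and "fell" are written only of these. *Mettl3* was at 115, 123.5 and 129.8 CPM in control CFU-E and at 117, 127 and 108 CPM in CFU-E Kit-lo (log2 fold change -0.07, SE 0.10, adjusted p = 0.634), so the total of its transcripts did not separate the groups, and counts summed over a gene cannot show whether exons are missing. *Kit*, on chromosome 5 of GRCm38 from 75574916 to 75656722, was at 544, 629 and 622 CPM in control CFU-E and at 68.5, 53.1 and 43.96 CPM in CFU-E Kit-lo (log2 fold change -3.44, SE 0.15, adjusted p = 4.31e-07). *Gata2*, on chromosome 6 of GRCm38 from 88193891 to 88207032, was at 36.3, 31.6 and 36.4 CPM in control CFU-E and at 1.92, 2.82 and 2.09 CPM in CFU-E Kit-lo (log2 fold change -3.93, SE 0.20, adjusted p = 1.16e-06). *Slc4a1*, on chromosome 11 of GRCm38 from 102348824 to 102366203, encodes the band 3 anion exchanger of the red cell and was at 0.958, 1.43 and 3.15 CPM in control CFU-E and at 198, 313 and 352 CPM in CFU-E Kit-lo (log2 fold change 7.31, SE 0.36, adjusted p = 9.95e-07). *Kit*, *Gata2* and *Slc4a1* did not overlap between the groups, as 5688 of the 11979 genes tested (47.5%). The mitochondrial genome gave 2.22 to 2.66% of the counts in control CFU-E and 1.79, 1.84 and 2.90% in CFU-E Kit-lo, so the third CFU-E Kit-lo library stood apart from the other two, and results that rest on it are given without it. In bulk samples such as these, fewer cells of a type and less RNA per cell cannot be told apart.

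Summed markers of macrophages and of mast cells were lower in CFU-E Kit-lo. Of the defining genes, *Adgre1*, *Cpa3*, *Pf4*, *Cd79a* and *Cd3e* were at or near 0. *Cd163* of macrophages and *Mpo* of neutrophils and monocytes were above 0 in both groups and lower in CFU-E Kit-lo. The part of such other cells in the results was not tested. The summed CPM of the 20 macrophage markers in the table was 146 to 178 in control CFU-E and 30.4 to 37.2 in CFU-E Kit-lo, 3 of 12 tested were lower and none higher, and the defining *Adgre1* was at 0.115 CPM or less in control CFU-E and at 0 in CFU-E Kit-lo. Most of that sum was *Apoe*, an apolipoprotein that erythroid progenitors may also express, at 115, 126 and 141 CPM in control CFU-E and at 9.82, 8.98 and 10.2 CPM in CFU-E Kit-lo (log2 fold change -3.72, SE 0.13, adjusted p = 1.76e-07). The defining *Cd163* was also lower, at 12.7, 13.9 and 13.9 against 7.64, 4.81 and 6.62 CPM (log2 fold change -1.09, SE 0.22, adjusted p = 0.00387). The mast cell and basophil markers summed to 338 to 361 CPM and 156 to 191 CPM, with the defining *Cpa3* at 0.718 CPM or less and at 0. Most of that sum was *Il1rl1*, whose values are given below, and *Srgn*, at 141, 173 and 153 against 65.4, 62.4 and 80.5 CPM. The fall of the sum therefore rests on these genes and not on *Cpa3*. The neutrophil and monocyte markers summed to 28.9 to 43.0 and 19.3 to 31.8 CPM, and their *Mpo* was at 23.3, 19.3 and 16.1 against 3.64, 1.07 and 10.3 CPM, with the third CFU-E Kit-lo library nearest to control and no call by DESeq2 or without any 1 control library. The sums of the megakaryocyte markers (132 to 155 and 136 to 203 CPM, *Pf4* under 1.89 CPM) and of the lymphoid markers (26.5 to 36.7 and 28.9 to 33.2 CPM, *Cd79a* and *Cd3e* under 0.972 CPM) overlapped between the groups. Single members were called all the same, 3 higher and 1 lower of 9 megakaryocyte and 2 higher and 0 lower of 8 lymphoid markers tested. Both lymphoid rises were at low levels, and *Ighm* was at 0.287, 0.629 and 0.916 against 2.70, 3.01 and 3.49 CPM. *Igll1*, a chain of the pre-B cell receptor, was at 0 in all 3 control libraries and at 0.68 to 0.779 CPM in CFU-E Kit-lo. Of the Y-linked *Ddx3y*, *Eif2s3y* and *Uty*, none exceeded 0.678 CPM in any library, and *Kdm5d* was at 2.92, 3.83 and 2.18 against 2.86, 3.35 and 5.53 CPM, although the methods give both sexes. Of 6 genes annotated on chromosome Y that passed the filter, 4 were lower (66.7%, median log2 fold change of the 6 -2.05). These 4, examined after their values were seen, lie at the end of the chromosome that shares sequence with X, so their reads cannot be assigned to Y with certainty, and *Gm21748* and *Gm21860* have identical values. *Gm47283*, the highest of the 4, was at 295, 199 and 140.3 CPM in control CFU-E and at 59.2, 56.1 and 57.7 CPM in CFU-E Kit-lo (log2 fold change -1.88, SE 0.22, adjusted p = 0.00015).

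Of the 11979 genes tested, 1453 (12.1%) were higher and 1178 (9.83%) lower in CFU-E Kit-lo, which is the background for every count that follows. The median log2 fold change of all genes was 0.01. Leaving out any 1 library gave 1201 to 1513 higher and 979 to 1247 lower genes. Genes were sorted into 91 functional classes, some of which share members, that together held 4373 of the genes tested. Among the classes with 10 or more genes tested, 7 had a median at least 0.3 above that of all genes and 8 a median at least 0.3 below it. In the plot of class medians, erythroid, p53 and G1 classes lay at the upper end, and progenitor, immediate-early and ribosomal protein classes at the lower end.

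**Figure D1:**
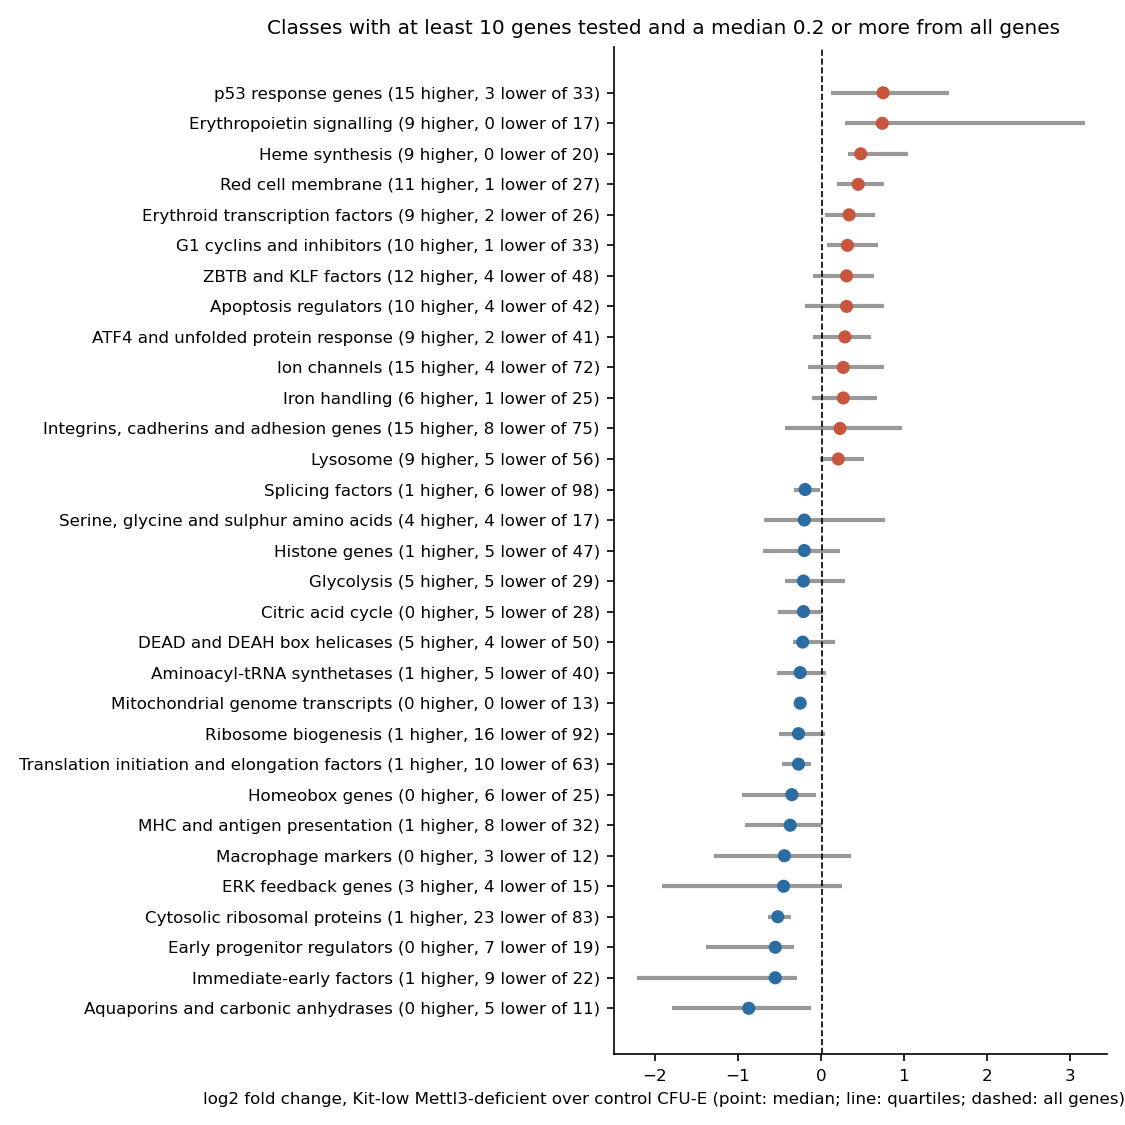
Median (point) and quartiles (line) of the log2 fold change of CFU-E Kit-lo over control CFU-E for the 31 classes with at least 10 genes tested and a median 0.2 or more from that of all genes (dashed line). The numbers beside each name are its DEGs and its genes tested, and the cytosolic ribosomal proteins, with quartiles of -0.64 and -0.36, lie below the dashed line.

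The globin genes had the largest median of all 91 classes (5.97). All 4 globin genes tested were higher, with log2 fold changes from 4.99 to 6.84. *Hba-a2*, an alpha-globin gene, was at 30.7, 28.8 and 27.02 CPM in control CFU-E and at 1019.7, 1747 and 1202 CPM in CFU-E Kit-lo (log2 fold change 5.52, SE 0.20, adjusted p = 1.76e-07). *Hbb-bt*, a beta-globin gene, was at 2.06, 0.972 and 1.37 CPM in control CFU-E and at 92.5, 156 and 135 CPM in CFU-E Kit-lo (log2 fold change 6.42, SE 0.28, adjusted p = 4.03e-07). *Hba-a1* and *Hba-a2*, and *Hbb-bs* and *Hbb-bt*, are near-identical copies, so the split of reads within each pair is uncertain, while the sum over the globin genes in the table, 62.8 to 70.6 CPM against 2232 to 3796 CPM, is not affected by it. Of 20 heme synthesis genes tested, 9 were higher and 0 lower (median 0.48). *Alas2*, the first enzyme of heme synthesis in red cells, was at 1.96, 4.52 and 2.18 CPM in control CFU-E and at 98.95, 193 and 118 CPM in CFU-E Kit-lo (log2 fold change 5.58, SE 0.35, adjusted p = 4.14e-06). *Fam210b*, a mitochondrial protein linked to iron import for heme, was at 45.4, 47.6 and 41.05 against 232, 213 and 221 CPM (log2 fold change 2.31, SE 0.094, adjusted p = 2.54e-07). *Abcb6*, a porphyrin transporter, had a smaller rise at 157, 157 and 165 against 454, 413 and 487 CPM (log2 fold change 1.496, SE 0.084, adjusted p = 2.25e-06). The stretches before the start sites of *Hba-a2* and *Alas2* are shown because these genes were among the largest rises of their classes (RefSeq, GRCm38.p6, annotated exons left out). Here and below, the start is the most upstream one listed for the gene with enough bases outside exons before it. The capitals mark CCAAT in *Hba-a2* (chr11:32296242-32296488, plus strand) and AGATAA, read here from its other strand, in *Alas2* (chrX:150547167-150547374, plus strand). Searched on both strands of the 250 bases before the start, CCAAT was found in 33.8% and AGATAA in 9.99% of the 32817 promoters of the table, so a match is a description only.
Hba-a2: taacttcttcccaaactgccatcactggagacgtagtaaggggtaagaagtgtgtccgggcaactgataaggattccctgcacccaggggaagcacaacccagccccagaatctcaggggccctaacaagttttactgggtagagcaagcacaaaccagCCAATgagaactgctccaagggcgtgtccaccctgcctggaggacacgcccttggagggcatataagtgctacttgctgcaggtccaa
Alas2: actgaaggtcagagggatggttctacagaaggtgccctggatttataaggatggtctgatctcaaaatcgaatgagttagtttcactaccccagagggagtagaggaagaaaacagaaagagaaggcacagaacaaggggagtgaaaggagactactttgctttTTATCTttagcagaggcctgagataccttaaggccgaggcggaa

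Of the 27 red cell membrane genes, 11 were higher and 1 lower (median 0.45). *Tmod1*, which caps the short actin filaments of the membrane skeleton, was at 0.575, 1.32 and 1.66 against 13.2, 17.4 and 17.5 CPM (log2 fold change 3.77, SE 0.35, adjusted p = 3.72e-05). *Gypc*, encoding glycophorin C, went the other way at 239, 212 and 247 against 141, 156 and 160.2 CPM (log2 fold change -0.61, SE 0.091, adjusted p = 0.000664), a call lost without the third control or the first CFU-E Kit-lo library. Iron genes were more mixed, with 6 higher and 1 lower of 25. *Slc25a37* encodes mitoferrin, which brings iron into the mitochondrion, and was at 13.1, 13.3 and 11.9 against 47.7, 60.9 and 66.7 CPM (log2 fold change 2.19, SE 0.15, adjusted p = 7.43e-06). *Ncoa4*, the receptor for ferritin breakdown, was at 99.5, 119.9 and 106 against 198, 219.7 and 225 CPM (log2 fold change 0.98, SE 0.10, adjusted p = 5.28e-05). *Steap3*, the endosomal ferrireductase, was at 336, 297 and 313 against 603, 512 and 561 CPM (log2 fold change 0.83, SE 0.086, adjusted p = 6.98e-05). Import, release from store and reduction of iron each had a gene among the rises. *Lyrm4*, which takes part in iron-sulfur cluster assembly, fell (49.3, 41.2 and 45.2 against 24.2, 24.8 and 22.3 CPM, log2 fold change -0.93, SE 0.13, adjusted p = 0.000383).

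Among the 26 erythroid transcription factors, 9 were higher and 2 lower. *E2f2*, an E2F factor that is prominent in late erythroid cells, was at 14.99, 12.1 and 16.6 CPM in control CFU-E and at 86.3, 89.2 and 67.5 CPM in CFU-E Kit-lo (log2 fold change 2.48, SE 0.16, adjusted p = 4.91e-06). *Sox6*, known for the silencing of embryonic globin, was at 9.19, 12.1 and 13.3 against 37.4, 41.4 and 56.9 CPM (log2 fold change 1.97, SE 0.20, adjusted p = 6.46e-05). *Zfpm1*, the partner of Gata1, was at 7.33, 13.6 and 11.4 against 22.8, 27.04 and 38.7 CPM (log2 fold change 1.46, SE 0.26, adjusted p = 0.00189). The factors called lower were 2. The corepressor *Cbfa2t3* was at 109, 76.6 and 102 against 43.9, 49.9 and 38.1 CPM (log2 fold change -1.12, SE 0.15, adjusted p = 0.000364). *Nfia* was at 183, 121 and 151 against 98.6, 103 and 76.4 CPM (log2 fold change -0.71, SE 0.16, adjusted p = 0.0063), a call lost without the first control or the third CFU-E Kit-lo library.

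Genes of erythropoietin signalling made one of the most one-sided classes, with 9 higher and 0 lower of 17 (median 0.74). *Cish*, a feedback inhibitor induced through Stat5, was at 3.06, 2.52 and 4.29 CPM in control CFU-E and at 26.7, 29.8 and 33.2 CPM in CFU-E Kit-lo (log2 fold change 3.18, SE 0.22, adjusted p = 7.07e-06). *Erfe*, the erythroid hormone that lowers hepcidin, was at 1.05, 1.66 and 3.09 CPM in control CFU-E and at 30.4, 19.96 and 50.01 CPM in CFU-E Kit-lo (log2 fold change 4.12, SE 0.43, adjusted p = 7.10e-05). *Bcl2l1*, the survival gene of erythroblasts, was at 24.997, 21.8 and 29.3 against 73.4, 73.3 and 57.1 CPM (log2 fold change 1.42, SE 0.15, adjusted p = 8.13e-05). The other SOCS genes called were *Socs1*, *Socs2* and *Socs3*, with log2 fold changes of 2.14, 2.52 and 4.78. *Socs3* either averaged under 3 on the log2 CPM scale or overlapped between the groups, so its size is less certain. The receptor gene *Epor* was at 227, 226 and 223 against 367, 339 and 313 CPM (log2 fold change 0.59, SE 0.080, adjusted p = 0.000357), close to the 1.5-fold threshold. These 4 were named after their values were seen. With upper quartile scaling 8 genes of the class were higher, and with offsets for GC content 8 were higher and 1 lower. The autophagy and organelle removal class stayed near the background, with 7 higher and 4 lower of 45. Its ubiquitin enzyme *Ube2o* (19.9, 23.5 and 19.6 against 62.5, 67.5 and 88.2 CPM), the export receptor *Xpo7* (7.47, 7.89 and 6.58 against 20.05, 27.6 and 14.4 CPM) and the ligase *Trim58* (17.9, 13.5 and 13.5 against 44.2, 31.7 and 24.7 CPM), all known from terminal erythroid remodelling, were higher, while the conjugation genes *Atg12* (118, 107 and 108 against 67.2, 67.5 and 66.4 CPM) and *Atg3* (21.3, 25.7 and 22.4 against 11.6, 15.3 and 15.3 CPM) were lower.

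**Figure D2:**
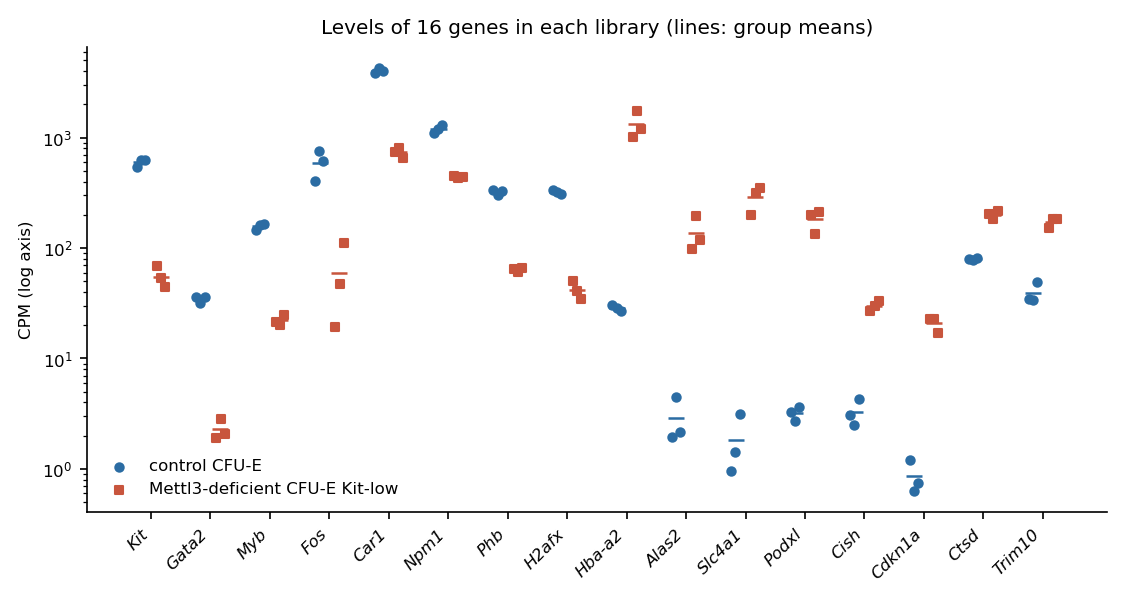
CPM (log axis) of 16 genes in each of the 3 control (blue circles) and 3 CFU-E Kit-lo libraries (red squares), with the group means as lines. The 16 genes were chosen after their values were seen, among genes whose groups do not overlap, as in 47.5% of all genes tested, and the spread within CFU-E Kit-lo is widest for *Fos* at 19.4 to 111 CPM.

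Of 19 early progenitor regulators tested, 0 were higher and 7 lower (median -0.55), and 17 had a negative log2 fold change. *Myb*, which keeps progenitors dividing, was at 146, 162 and 164 CPM in control CFU-E and at 21.5, 20.1 and 24.7 CPM in CFU-E Kit-lo (log2 fold change -2.83, SE 0.11, adjusted p = 2.54e-07). *Hhex*, a homeobox factor of blood progenitors, was at 27.5, 33.6 and 35.6 against 2.18, 1.51 and 0.887 CPM (log2 fold change -4.39, SE 0.29, adjusted p = 4.68e-06). None of the 25 homeobox genes tested was higher and 6 were lower, among them *Pbx4* at 15.8, 17.96 and 14.7 against 8.15, 7.87 and 7.20 CPM (log2 fold change -1.06, SE 0.18, adjusted p = 0.00142).

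The immediate-early factors, which cells switch on within minutes of a growth or stress signal and which cell handling can also induce, were 1 higher and 9 lower of 22 (median -0.55). *Fos* was at 404, 759 and 616 CPM in control CFU-E and at 19.4, 46.95 and 111 CPM in CFU-E Kit-lo (log2 fold change -3.32, SE 0.51, adjusted p = 0.000777). *Fosb* was at 74.5, 117 and 95.5 CPM in control CFU-E and at 0.883, 2.28 and 6.94 CPM in CFU-E Kit-lo (log2 fold change -4.83, SE 0.51, adjusted p = 7.91e-05). *Egr1* was at 142, 152 and 120.5 CPM in control CFU-E and at 2.08, 8.69 and 9.80 CPM in CFU-E Kit-lo (log2 fold change -4.33, SE 0.40, adjusted p = 3.70e-05). In all 3 genes the first CFU-E Kit-lo library was lowest and the third highest. *Btg2*, an antiproliferative gene and a known p53 target, was the one that rose (67.7, 54.3 and 47.8 against 102, 121 and 134 CPM, log2 fold change 1.07, SE 0.15, adjusted p = 0.0004). The summed CPM of the class was 3555 to 3634 in control CFU-E and 1354 to 1531 in CFU-E Kit-lo. The stretches before the starts of *Fos* (chr12:85473640-85473889, plus strand) and *Fosb* (chr7:19310052-19310295, minus strand) are shown because these are partners of the AP-1 factor that fell together, with TGACG, the core of the CRE, in capitals. TGACG was present, on either strand of the 250 bases, in 17.7% of all promoters.
Fos: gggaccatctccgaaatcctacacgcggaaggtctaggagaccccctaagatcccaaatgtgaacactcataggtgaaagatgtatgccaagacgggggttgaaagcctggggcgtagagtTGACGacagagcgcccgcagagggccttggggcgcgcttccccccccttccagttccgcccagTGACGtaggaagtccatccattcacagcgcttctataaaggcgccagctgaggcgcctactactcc
Fosb: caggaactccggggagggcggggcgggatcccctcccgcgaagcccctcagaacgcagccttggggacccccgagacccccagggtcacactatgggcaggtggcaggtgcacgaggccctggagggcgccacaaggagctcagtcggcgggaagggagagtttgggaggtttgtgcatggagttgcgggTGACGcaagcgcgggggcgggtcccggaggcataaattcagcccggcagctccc

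Feedback genes of ERK signalling split, with 3 higher and 4 lower of 15, and 0 higher without the third control library. *Dusp1*, a phosphatase of MAP kinases, was at 116, 130.4 and 118 against 27.8, 44.3 and 45.9 CPM (log2 fold change -1.62, SE 0.17, adjusted p = 7.93e-05). *Etv5*, a factor induced by ERK, was at 25.04, 15.6 and 22.9 against 7.06, 4.27 and 2.24 CPM (log2 fold change -2.22, SE 0.36, adjusted p = 0.00109). The NF-kB class held 5 higher and 4 lower of 33 (median -0.06), with 3 higher without the second control library and 2 lower without the first. *Tnfaip3*, an inhibitor of the pathway, was at 52.9, 61.8 and 40.8 against 2.23, 6.99 and 4.02 CPM (log2 fold change -3.55, SE 0.34, adjusted p = 4.47e-05). *Nfkbia*, the inhibitor that holds NF-kB in the cytoplasm, was at 323, 246 and 238 against 63.6, 157 and 81.5 CPM (log2 fold change -1.41, SE 0.28, adjusted p = 0.00342). The decay class as a whole was even (6 higher and 6 lower of 63, median 0.01), but 2 zinc finger genes whose proteins destabilise mRNA were lower. *Zfp36* was at 88.4, 77.6 and 62.7 against 18.96, 24.3 and 15.6 CPM (log2 fold change -1.96, SE 0.18, adjusted p = 4.04e-05). *Zfp36l2* was at 83.9, 68.1 and 81.4 against 31.6, 28.8 and 32.2 CPM (log2 fold change -1.33, SE 0.12, adjusted p = 3.15e-05).

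Cytokine receptors fell more often than they rose, 11 against 5 of 35, or 8 lower without the second control library. The falls count *Kit*, on whose low surface level the cells were sorted. *Il1rl1*, the interleukin 33 receptor and also a mast cell marker, was at 150.1, 130.3 and 157 against 46.5, 49.9 and 59.3 CPM (log2 fold change -1.49, SE 0.12, adjusted p = 1.46e-05). *Ifngr1*, the ligand-binding chain of the interferon gamma receptor, was at 759, 957 and 866 against 439.5, 356 and 417 CPM (log2 fold change -1.09, SE 0.11, adjusted p = 5.07e-05). The insulin receptor gene *Insr* was higher at 14.4, 31.5 and 19.1 against 36.3, 48.8 and 45.6 CPM (log2 fold change 1.01, SE 0.25, adjusted p = 0.0116), but 1 receptor was called higher when the third control library was left out, and *Insr* was not.

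Genes of cytosolic protein synthesis had many negative log2 fold changes of small size. Of the 83 cytosolic ribosomal protein genes, all tested, 1 was higher and 23 lower, and 78 had a negative log2 fold change. The median was -0.52 and the quartiles were -0.64 and -0.36, so most members lay under the 1.5-fold threshold. Without the third control library 36 were lower, and without the second CFU-E Kit-lo library 17. *Rps12*, of the small subunit, was at 46.6, 48.7 and 57.8 CPM in control CFU-E and at 21.5, 30.01 and 28.1 CPM in CFU-E Kit-lo (log2 fold change -0.94, SE 0.16, adjusted p = 0.00117). *Rpl12*, of the large subunit, was at 24.8, 19.9 and 26.8 against 11.7, 13.7 and 10.5 CPM (log2 fold change -0.99, SE 0.18, adjusted p = 0.00195). *Rpl22l1*, the paralog of *Rpl22*, had the largest fall of the class at 84.2, 103 and 87.8 against 30.2, 39.2 and 41.7 CPM (log2 fold change -1.31, SE 0.14, adjusted p = 9.18e-05). The summed CPM of the class was 33210 to 36810 in control CFU-E and 22290, 22920 and 29660 in CFU-E Kit-lo, where the third library again lay nearest to control. Ribosomal protein genes have many processed pseudogenes in the genome, so the counts of single members are uncertain.

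Of 92 biogenesis genes, 1 was higher and 16 lower (median -0.27), and 4 were higher without the second CFU-E Kit-lo library. *Npm1*, the nucleolar chaperone nucleophosmin, was at 1112, 1206 and 1299 CPM in control CFU-E and at 445, 435 and 441 CPM in CFU-E Kit-lo (log2 fold change -1.45, SE 0.078, adjusted p = 1.58e-06). *Nat10*, which acetylates cytidine in ribosomal RNA, was at 309, 272 and 299.6 against 156, 117 and 100.1 CPM (log2 fold change -1.24, SE 0.14, adjusted p = 0.000151). *Wdr12*, of the PeBoW complex, was at 418, 376 and 398 against 188, 169 and 191 CPM (log2 fold change -1.12, SE 0.082, adjusted p = 8.43e-06). Of 63 initiation and elongation factors, 1 was higher and 10 lower (median -0.27). *Eif4b*, a helper of the eIF4A helicase, was at 729, 756 and 785 against 369.7, 389 and 456 CPM (log2 fold change -0.90, SE 0.090, adjusted p = 5.55e-05). *Eif3e*, a subunit of the scaffold eIF3, was at 589, 633 and 721 against 317, 362 and 391 CPM (log2 fold change -0.86, SE 0.10, adjusted p = 0.000162). *Eef1b2*, the exchange factor of eEF1A, was at 501, 519 and 582 against 277, 310.1 and 362 CPM (log2 fold change -0.75, SE 0.11, adjusted p = 0.000453).

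Aminoacyl-tRNA synthetases had a median of -0.25, with 1 higher and 5 lower of 40, or 8 lower without the third CFU-E Kit-lo library. The mitochondrial methionyl enzyme *Mars2* fell furthest (81.3, 65.1 and 90.4 against 27.1, 18.7 and 25.2 CPM, log2 fold change -1.74, SE 0.17, adjusted p = 5.08e-05). The cytosolic alanyl enzyme *Aars* rose (402, 358 and 354 against 506, 594 and 626 CPM, log2 fold change 0.63, SE 0.10, adjusted p = 0.000701), a call lost without that same library. Mitochondrial ribosomal proteins had a median on the other side of 0. Of 78, 9 were higher (11.5%, against 12.1% of all genes) and 2 lower (2.56%, against 9.83%), so rises were no more frequent than among all genes. The median was 0.12, and 48 log2 fold changes were positive and 30 negative. *Mrpl43* was at 61.5, 61.7 and 63.4 against 208, 181 and 219 CPM (log2 fold change 1.70, SE 0.10, adjusted p = 2.44e-06). *Mrps34* was at 44.1, 49.5 and 39.7 against 141, 131 and 129 CPM (log2 fold change 1.59, SE 0.11, adjusted p = 6.25e-06). Among the lower ones, *Mrps27* was at 165, 147 and 178 against 98.1, 88.4 and 99.7 CPM (log2 fold change -0.78, SE 0.10, adjusted p = 0.000278). The difference between the cytosolic and mitochondrial classes was not tested.

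**Figure D3:**
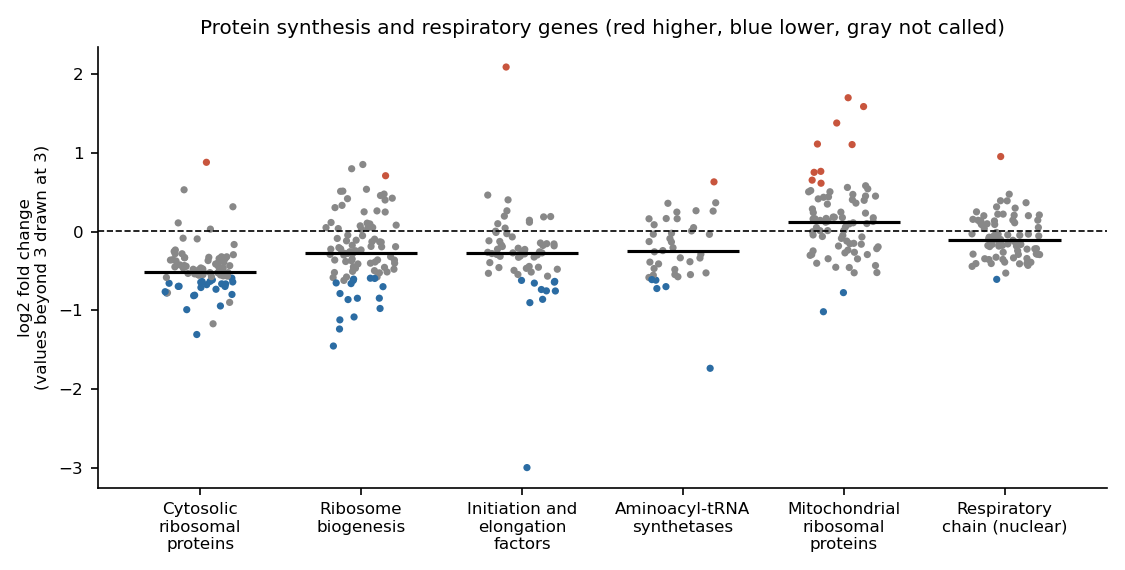
Log2 fold change of each gene tested in 6 classes (red called higher, blue called lower, gray neither), with class medians as solid lines, that of all genes as a dashed line, and 1 value beyond -3 drawn at -3. The cytosolic ribosomal proteins lie almost all below 0 with a median of -0.52, while the mitochondrial ribosomal proteins have a median of 0.12.

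Splicing factors had a median of -0.19 and 75 of 98 negative values, but 1 higher and 6 lower, or 3 lower without the third control library. *Celf2*, an RNA-binding splicing regulator, was at 33.5, 35.5 and 38.99 CPM in control CFU-E and at 3.64, 7.53 and 7.51 CPM in CFU-E Kit-lo (log2 fold change -2.53, SE 0.25, adjusted p = 5.76e-05). *Lsm10*, a subunit of the U7 particle that processes histone mRNA, rose (51.1, 47.2 and 42.996 against 179, 166 and 169 CPM, log2 fold change 1.86, SE 0.10, adjusted p = 1.48e-06). Of 26 genes of the m6A machinery tested, 4 were higher and 3 lower. The writer subunits went both ways. *Wtap*, the adaptor of the writer complex, was at 26.6, 19.9 and 21.3 against 64.3, 61.95 and 48.6 CPM (log2 fold change 1.37, SE 0.16, adjusted p = 0.000143). *Rbm15*, which brings the writer to its targets, was at 26.8, 26.5 and 22.8 against 34.7, 103 and 112 CPM (log2 fold change 1.71, SE 0.35, adjusted p = 0.00387). *Mettl14*, the partner of Mettl3, was at 66.3, 53.7 and 65.8 against 39.4, 47.2 and 31.7 CPM (log2 fold change -0.65, SE 0.16, adjusted p = 0.00988), a call lost without the third CFU-E Kit-lo library. *Ythdf2*, the cytoplasmic reader that targets m6A mRNA for decay, was at 424, 349.6 and 378 CPM in control CFU-E and at 949, 847 and 806 CPM in CFU-E Kit-lo (log2 fold change 1.18, SE 0.10, adjusted p = 1.46e-05). Nucleoporins and transport receptors held 5 higher and 1 lower of 58, or 3 lower without the first CFU-E Kit-lo library. The mRNA export cofactor *Nxt1* was at 73.99, 66.4 and 68.99 against 227, 220.3 and 250.3 CPM (log2 fold change 1.74, SE 0.091, adjusted p = 1.40e-06). The nucleoporin *Nup37* was the one lower, at 117, 128 and 146 against 62.9, 56.1 and 68.1 CPM (log2 fold change -1.06, SE 0.12, adjusted p = 9.19e-05).

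Genes of DNA replication, chromosome segregation and DNA repair were called about as often as all genes or less. Replication fork genes had a median of 0.13 (4 higher and 1 lower of 58) and kinetochore and spindle genes one of 0.08 (12 higher and 5 lower of 103), both shares close to or under the 12.1% and 9.83% of all genes. *Fen1*, the flap endonuclease, was at 445, 386 and 424 against 876, 872 and 972 CPM (log2 fold change 1.12, SE 0.083, adjusted p = 9.23e-06). *Cdc6*, the licensing factor, was at 564, 579 and 614 against 996, 947 and 1043 CPM (log2 fold change 0.77, SE 0.073, adjusted p = 4.33e-05). Recombination and crosslink repair genes held 8 higher and 2 lower of 62. *Exo1*, which resects broken ends, was at 109.9, 103 and 105 against 193, 207 and 172 CPM (log2 fold change 0.85, SE 0.092, adjusted p = 9.18e-05). *Xrcc5*, which encodes Ku80 of end joining, was at 169.8, 164 and 182 against 104, 90.9 and 109.7 CPM (log2 fold change -0.76, SE 0.10, adjusted p = 0.000255). Excision repair genes held 2 higher and 4 lower of 46, or 2 lower without the third control library. Their damage sensor *Xpc* was at 32.9, 28.5 and 35.4 against 19.1, 10.5 and 14.5 CPM (log2 fold change -1.14, SE 0.21, adjusted p = 0.00227).

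Histone genes held a few large falls, but the share of the class called lower was close to that of all genes. *H2afx*, the H2A variant that is phosphorylated at DNA breaks, was at 335, 323 and 309 CPM in control CFU-E and at 50.3, 40.4 and 34.5 CPM in CFU-E Kit-lo (log2 fold change -2.95, SE 0.13, adjusted p = 4.52e-07). *Hist1h1c*, a linker histone, was at 29.8, 40.04 and 38.3 against 7.22, 7.19 and 13.7 CPM (log2 fold change -1.95, SE 0.26, adjusted p = 0.000311). *Hist3h2a*, an H2A gene, was at 14.6, 14.5 and 13.97 against 1.35, 1.12 and 2.35 CPM (log2 fold change -3.16, SE 0.30, adjusted p = 4.11e-05). The linker histone of resting and differentiating cells, *H1f0*, went the other way at 6.23, 11.1 and 6.81 against 12.8, 23.1 and 36.7 CPM (log2 fold change 1.59, SE 0.36, adjusted p = 0.00713). In all, 1 was higher (2.13%) and 5 lower (10.6%) of 47 tested, against 12.1% and 9.83% of all genes. Most replication-dependent histone mRNAs have no poly(A) tail, so oligo-dT libraries see them poorly, and near-identical copies make single members uncertain.

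The p53 response class had the largest median of the classes with 20 or more genes tested, 0.75, with 15 higher and 3 lower of 33. *Cdkn1a*, the p21 inhibitor of cyclin-dependent kinases, was at 1.197, 0.629 and 0.744 CPM in control CFU-E and at 22.7, 22.8 and 17.1 CPM in CFU-E Kit-lo (log2 fold change 4.57, SE 0.29, adjusted p = 3.99e-06). *Trp53inp1*, a stress-induced partner of p53, was at 4.21, 5.15 and 2.75 against 10.3, 18.2 and 14.1 CPM (log2 fold change 1.82, SE 0.30, adjusted p = 0.00112). *Ppm1d*, a phosphatase that switches p53 signalling off, was at 6.23, 10.1 and 9.62 against 28.4, 24.1 and 30.4 CPM (log2 fold change 1.68, SE 0.21, adjusted p = 0.000221). The p53 gene *Trp53* itself (log2 fold change -0.59) and *Mdm4* (-0.64) were called lower. Without the first control library both of these calls were lost, and 1 gene of this class, not 3, was lower. Both were also lost without the third CFU-E Kit-lo library and with scaling by library size alone. The *Trp53* call was lost as well without the third control or the second CFU-E Kit-lo library, and the *Mdm4* call with offsets for GC content. The stretch before the most upstream start of *Cdkn1a* (chr17:29090729-29090975, plus strand) is shown because this gene headed the class. Both matches to the p53 half-site are in capitals, and any start further downstream is not shown. That half-site, which reads alike on both strands, was found in 7.12% of all promoters.
Cdkn1a: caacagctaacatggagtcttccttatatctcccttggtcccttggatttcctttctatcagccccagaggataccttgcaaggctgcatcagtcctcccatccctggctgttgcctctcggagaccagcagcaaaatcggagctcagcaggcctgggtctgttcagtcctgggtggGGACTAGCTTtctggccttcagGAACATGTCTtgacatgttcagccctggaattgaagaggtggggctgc

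G1 cyclins and inhibitors were 10 higher and 1 lower of 33 (median 0.32), counting *Cdkn1a* and *E2f2* again. *Cdc25b*, a phosphatase that activates cyclin-dependent kinases, was at 9.67, 12.9 and 14.03 CPM in control CFU-E and at 71.8, 58.5 and 57.7 CPM in CFU-E Kit-lo (log2 fold change 2.36, SE 0.17, adjusted p = 7.99e-06). *Cdk6*, which sustains progenitor cycling, was at 1171, 969 and 989 CPM in control CFU-E and at 572, 559.6 and 488 CPM in CFU-E Kit-lo (log2 fold change -0.95, SE 0.10, adjusted p = 6.24e-05). Apoptosis regulators held 10 higher and 4 lower of 42, or 2 lower without the first control library. *Aifm2*, an oxidoreductase that protects from ferroptosis, was higher (6.94, 7.61 and 9.45 against 18.8, 17.7 and 14.1 CPM, log2 fold change 1.08, SE 0.20, adjusted p = 0.00251).

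In central carbon metabolism the citric acid cycle held 0 higher and 5 lower of 28 genes (median -0.21). *Fh1*, fumarase, was at 512, 495 and 529 against 295, 276 and 328 CPM (log2 fold change -0.77, SE 0.083, adjusted p = 8.48e-05). *Suclg2*, a subunit of succinyl-CoA ligase, was at 241, 272 and 258 against 150.1, 127 and 132 CPM (log2 fold change -0.91, SE 0.092, adjusted p = 5.91e-05). *Suclg1*, its other subunit, was at 252, 252 and 259.7 against 162, 147 and 149 CPM (log2 fold change -0.74, SE 0.077, adjusted p = 7.39e-05). In glycolysis, 5 genes rose and 5 fell of 29, and 3 rose without the second control library. *Bpgm*, which makes the 2,3-bisphosphoglycerate of red cells, was at 29.02, 28.3 and 34.4 CPM in control CFU-E and at 83.8, 101 and 96.6 CPM in CFU-E Kit-lo (log2 fold change 1.62, SE 0.12, adjusted p = 1.07e-05). The lactate exporter *Slc16a3* rose (6.46, 7.21 and 8.30 against 46.4, 24.7 and 26.4 CPM, log2 fold change 2.15, SE 0.25, adjusted p = 0.000162), although *Ldha*, which makes lactate, was at 1522, 1378 and 1670.5 against 959, 849.99 and 844 CPM (log2 fold change -0.78, SE 0.090, adjusted p = 0.000136). *Gpi1*, the glucose phosphate isomerase, was at 281, 297 and 319 against 177, 160.4 and 181 CPM (log2 fold change -0.79, SE 0.085, adjusted p = 8.13e-05). The nuclear genes of the respiratory chain had a median of -0.10, with 1 higher and 1 lower of 80. The 13 mRNAs of the mitochondrial genome all had negative log2 fold changes (median -0.25), and none was called. Their sum was 22710 to 26500 CPM in control CFU-E and 17410, 17840 and 29180 CPM in CFU-E Kit-lo, so the third CFU-E Kit-lo library lay above every control library, and without it 2 of the 13 were lower.

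**Figure D4:**
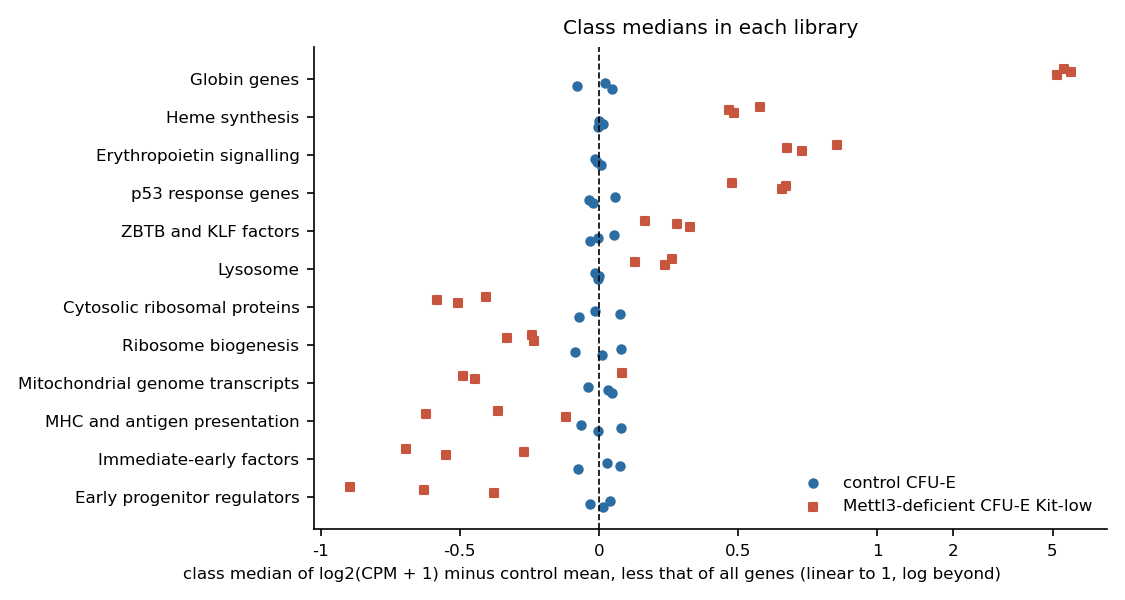
Class median of log2(CPM + 1) minus the control mean, less the same median over all genes, in each of the 3 control (blue circles) and 3 CFU-E Kit-lo libraries (red squares) for 12 classes, on an axis that is linear to 1 and logarithmic beyond. These classes were picked after their values were seen. The groups are apart in 11 of the 12, against 55 of all 91 classes, and the mitochondrial genome transcripts overlap because the third CFU-E Kit-lo library lies above the controls.

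Other mitochondrial genes changed one by one. *Phb*, the scaffold prohibitin of the inner membrane, was at 336, 303 and 328 CPM in control CFU-E and at 65.2, 60.4 and 66.5 CPM in CFU-E Kit-lo (log2 fold change -2.33, SE 0.086, adjusted p = 1.76e-07). *Chchd6*, of the cristae-organizing complex, was at 72.9, 66.1 and 62.2 against 27.9, 25.1 and 27.9 CPM (log2 fold change -1.31, SE 0.12, adjusted p = 2.93e-05). Of 60 genes of mitochondrial import and dynamics, 6 were higher and 2 lower (median -0.02). *Grpel2*, of the import motor, was at 61.7, 54.4 and 60.1 against 116, 127 and 115 CPM (log2 fold change 1.02, SE 0.10, adjusted p = 4.29e-05). *Timm17a*, of the inner membrane channel, was at 246, 197 and 222 against 449.9, 444 and 418 CPM (log2 fold change 0.98, SE 0.092, adjusted p = 4.05e-05). In the SLC25 carriers of the inner membrane, 7 were higher and 4 lower of 41. The NAD carrier *Slc25a51* was at 189.9, 169 and 182 against 419, 393 and 378 CPM (log2 fold change 1.14, SE 0.080, adjusted p = 7.36e-06). The citrate carrier *Slc25a1* was at 171, 166 and 170.3 against 112, 93.3 and 108 CPM (log2 fold change -0.69, SE 0.093, adjusted p = 0.00035).

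One-carbon and nucleotide genes were split within the class, with 8 higher and 10 lower of 55. *Mthfd2*, the mitochondrial folate dehydrogenase, was at 92.4, 89.4 and 96.4 CPM in control CFU-E and at 244, 208 and 289 CPM in CFU-E Kit-lo (log2 fold change 1.41, SE 0.12, adjusted p = 1.80e-05). The cytosolic serine hydroxymethyltransferase and both mitochondrial deoxynucleoside kinases fell. *Shmt1* was at 38.98, 44.8 and 43.7 against 15.4, 10.2 and 15.5 CPM (log2 fold change -1.63, SE 0.18, adjusted p = 9.19e-05). *Tk2* was at 40.6, 39.8 and 38.2 against 16.2, 12.2 and 11.9 CPM (log2 fold change -1.55, SE 0.16, adjusted p = 5.79e-05). *Dguok* was at 27.3, 28.3 and 25.6 against 10.4, 10.9 and 12.4 CPM (log2 fold change -1.27, SE 0.15, adjusted p = 0.000161). Of serine synthesis, the gene of the first enzyme was lower, with *Phgdh* at 648, 673 and 714 against 458, 322 and 329 CPM (log2 fold change -0.87, SE 0.13, adjusted p = 0.000581).

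In purine salvage and breakdown 6 rose and 1 fell of 24. The phosphorylase *Pnp2* was at 48.8, 53.5 and 53.4 against 178, 155 and 168 CPM (log2 fold change 1.69, SE 0.10, adjusted p = 2.44e-06), and it has a close paralog, *Pnp*, with which reads may be shared. The guanine deaminase *Gda* was at 14.3, 15.04 and 22.6 against 33.1, 42.1 and 38.5 CPM (log2 fold change 1.13, SE 0.19, adjusted p = 0.00141). The adenylate kinase of red cells, *Ak1*, which was not counted in this class, also rose (9.67, 8.98 and 8.36 against 39.2, 46.95 and 43.03 CPM, log2 fold change 2.26, SE 0.15, adjusted p = 4.46e-06).

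In lipid metabolism the classes were balanced and single genes moved. *Smpd1*, the acid sphingomyelinase, was at 77.1, 81.8 and 92.9 against 232, 213 and 253 CPM (log2 fold change 1.47, SE 0.10, adjusted p = 7.07e-06). *Degs1*, which turns dihydroceramide into ceramide, was at 89.9, 85.9 and 93.4 against 212, 188 and 230.1 CPM (log2 fold change 1.23, SE 0.10, adjusted p = 1.26e-05). *Sphk1*, which makes sphingosine-1-phosphate, was at 588, 562 and 538 against 281, 292 and 295 CPM (log2 fold change -0.96, SE 0.072, adjusted p = 9.47e-06). *Acsl6*, an acyl-CoA synthetase, fell (44.1, 33.97 and 33.9 against 5.30, 8.50 and 9.23 CPM, log2 fold change -2.28, SE 0.22, adjusted p = 4.82e-05). The carnitine acetyltransferase *Crat* rose (112, 120.1 and 126 against 276, 273 and 323 CPM, log2 fold change 1.29, SE 0.094, adjusted p = 8.66e-06). In sterol metabolism genes went both ways. *Insig1*, which holds the SREBP factors back, was at 31.7, 30.1 and 36.3 against 12.3, 12.2 and 12.6 CPM (log2 fold change -1.41, SE 0.14, adjusted p = 6.15e-05). *Hmgcs1*, an early enzyme of the pathway, was at 18.1, 27.7 and 28.2 against 13.97, 11.6 and 7.09 CPM (log2 fold change -1.18, SE 0.26, adjusted p = 0.00649). *Sc5d*, a late enzyme, was at 27.6, 32.8 and 34.6 against 52.5, 53.6 and 58.1 CPM (log2 fold change 0.79, SE 0.13, adjusted p = 0.000959).

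Antioxidant genes also went both ways. *Mgst3*, a glutathione transferase of membranes, was at 18.6, 25.6 and 17.98 against 71.1, 78.5 and 90.7 CPM (log2 fold change 1.95, SE 0.16, adjusted p = 1.78e-05). *Txnrd1*, thioredoxin reductase, was at 49.3, 43.98 and 44.1 against 101, 71.1 and 100.4 CPM (log2 fold change 0.99, SE 0.14, adjusted p = 0.000569). *Prdx6*, a peroxiredoxin and one of the more abundant mRNAs of these cells, was at 1872, 1799.6 and 1911 CPM in control CFU-E and at 848, 819.7 and 905 CPM in CFU-E Kit-lo (log2 fold change -1.12, SE 0.071, adjusted p = 4.29e-06). Among polyamine genes, the spermine oxidase *Smox* was at 7.09, 5.26 and 5.44 against 31.7, 37.1 and 51.9 CPM (log2 fold change 2.76, SE 0.22, adjusted p = 1.41e-05).

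Solute carriers, a class with transporters of the cell surface and of organelles, rose more often than they fell, with 35 higher and 10 lower of 167 tested (median 0.17). *Slc6a9*, the glycine transporter that feeds heme synthesis, was at 1.01, 0.515 and 1.37 CPM in control CFU-E and at 23.3, 22.2 and 19.1 CPM in CFU-E Kit-lo (log2 fold change 4.47, SE 0.31, adjusted p = 6.25e-06). *Slc45a3* was among the largest falls (37.7, 41.1 and 46.6 against 6.80, 2.67 and 4.49 CPM, log2 fold change -3.17, SE 0.28, adjusted p = 2.93e-05). *Abcg4*, a sterol transporter, was at 82.8, 63.5 and 64.98 against 203, 228 and 217 CPM (log2 fold change 1.62, SE 0.12, adjusted p = 7.99e-06). Ion channel genes held 15 higher and 4 lower of 72 (2 lower without the first control library). *Clcn2*, a chloride channel, was at 5.70, 3.83 and 4.29 against 20.5, 25.1 and 22.1 CPM (log2 fold change 2.28, SE 0.21, adjusted p = 3.20e-05). *Lrrc8a*, the core subunit of the volume-regulated anion channel, was at 57.7, 34.5 and 47.1 against 106, 85.6 and 85.8 CPM (log2 fold change 0.99, SE 0.18, adjusted p = 0.00178). *Lrrc8b*, another subunit, was at 10.8, 5.09 and 7.96 against 18.3, 17.2 and 22.8 CPM (log2 fold change 1.29, SE 0.26, adjusted p = 0.00396).

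Aquaporins and carbonic anhydrases had 0 higher and 5 lower of 11. *Car1*, carbonic anhydrase 1, was at 3861, 4256 and 4039.8 CPM in control CFU-E and at 746, 802 and 657 CPM in CFU-E Kit-lo (log2 fold change -2.46, SE 0.091, adjusted p = 1.76e-07), the largest absolute drop of the genes named here. Both aquaporins named are channels for water and glycerol. *Aqp9* was at 312, 363 and 328 against 78.1, 81.2 and 74.004 CPM (log2 fold change -2.10, SE 0.089, adjusted p = 3.49e-07). *Aqp7* was at 34.7, 29.2 and 21.9 against 5.04, 5.15 and 9.13 CPM (log2 fold change -2.15, SE 0.27, adjusted p = 0.000221).

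In protein breakdown, 1 was higher and 4 lower of 52 proteasome genes (median -0.18). The lower ones include subunits of the immunoproteasome. *Psmb8* was at 17.3, 17.1 and 12.996 against 6.44, 1.94 and 1.62 CPM (log2 fold change -2.25, SE 0.45, adjusted p = 0.00372). *Psmb9* was at 55.1, 55.3 and 47.5 against 36.4, 23.3 and 25.9 CPM (log2 fold change -0.88, SE 0.17, adjusted p = 0.00289). Ubiquitin ligase adaptors were 26 higher and 11 lower of 118, RING and MARCH ligases 15 and 4 of 73, and TRIM proteins 10 and 6 of 39. *Trim10*, a TRIM gene of terminal erythroid cells, was at 34.7, 33.6 and 49.01 CPM in control CFU-E and at 152, 182 and 181 CPM in CFU-E Kit-lo (log2 fold change 2.14, SE 0.15, adjusted p = 7.99e-06). *March8*, a membrane ligase that sends surface receptors such as the transferrin receptor for breakdown, was at 37.3, 50.3 and 48.5 against 80.7, 81.1 and 100.03 CPM (log2 fold change 0.95, SE 0.14, adjusted p = 0.000682). *March2*, a relative, was at 9.24, 11.3 and 10.99 against 20.6, 26.4 and 28.8 CPM (log2 fold change 1.26, SE 0.18, adjusted p = 0.000503). The cullin adaptor *Klhl25* was at 10.2, 9.09 and 10.1 against 24.4, 52.2 and 43.9 CPM (log2 fold change 2.04, SE 0.25, adjusted p = 0.000219).

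Of the 56 lysosome genes, 42 had a positive log2 fold change, and 9 were higher and 5 lower. *Ctsd*, the aspartic protease cathepsin D, was at 79.8, 77.2 and 81.9 against 204, 183 and 217 CPM (log2 fold change 1.34, SE 0.092, adjusted p = 6.53e-06). *Ctsb*, a cysteine protease, was at 299, 299 and 318 against 605, 613 and 709 CPM (log2 fold change 1.07, SE 0.084, adjusted p = 1.23e-05). *Grn*, progranulin, was at 18.1, 18.6 and 19.8 against 46.7, 40.7 and 40.2 CPM (log2 fold change 1.18, SE 0.13, adjusted p = 9.87e-05). Other members fell further than these rose. *Cd63*, a tetraspanin of the lysosomal membrane, was at 21.7, 22.2 and 23.9 against 3.53, 0.923 and 1.10 CPM (log2 fold change -3.61, SE 0.42, adjusted p = 0.000149). *Lipa*, the acid lipase, was at 155, 162 and 172 against 66.3, 51.3 and 64.8 CPM (log2 fold change -1.42, SE 0.11, adjusted p = 1.44e-05).

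Genes of the ATF4 and unfolded protein response were 9 higher and 2 lower of 41 (median 0.29). *Sesn2*, an inhibitor of mTORC1, was at 47.8, 54.4 and 33.8 against 87.5, 85.7 and 83.1 CPM (log2 fold change 0.91, SE 0.16, adjusted p = 0.00155). *Slc7a1*, a transporter of cationic amino acids, was at 52.9, 39.6 and 43.6 against 89.9, 80.5 and 82.5 CPM (log2 fold change 0.89, SE 0.13, adjusted p = 0.000454). *Slc3a2*, the heavy chain of several amino acid transporters, was at 169, 152 and 152 against 261, 248 and 269.5 CPM (log2 fold change 0.72, SE 0.082, adjusted p = 0.000127). In the PI3K and mTOR class, 11 rose and 4 fell of 54. *Castor1*, the arginine sensor of mTORC1, was at 1.53, 0.4 and 1.83 against 18.9, 12.5 and 19.2 CPM (log2 fold change 3.73, SE 0.43, adjusted p = 0.000129). *Foxo3*, a factor that AKT keeps out of the nucleus, was at 10.7, 12.98 and 8.02 against 17.7, 30.6 and 35.3 CPM (log2 fold change 1.40, SE 0.27, adjusted p = 0.00281). *Irs2*, an adaptor of the insulin receptor, was at 12.8, 12.1 and 20.3 against 29.3, 33.6 and 30.1 CPM (log2 fold change 1.04, SE 0.20, adjusted p = 0.00316). The mTOR inhibitor *Deptor* was among the falls at 35.9, 42.6 and 35.7 against 12.99, 10.4 and 11.6 CPM (log2 fold change -1.71, SE 0.15, adjusted p = 2.91e-05). Chaperones stayed near the background (10 higher and 5 lower of 83, or 2 lower without the third control library).

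Actin genes held 4 higher and 12 lower of 69, and tubulin and microtubule genes 8 higher and 5 lower of 47 (3 lower without the third control library). *Actg1*, cytoplasmic gamma actin, was at 341, 367 and 365 CPM in control CFU-E and at 172, 155 and 189 CPM in CFU-E Kit-lo (log2 fold change -1.06, SE 0.090, adjusted p = 2.00e-05). Among the latter, 2 tubulins and a cofactor rose, and tubulin genes are similar enough in sequence that reads may be shared among them. *Tubb2a* was at 9.63, 9.49 and 10.7 against 35.4, 37.5 and 42.1 CPM (log2 fold change 1.95, SE 0.15, adjusted p = 9.44e-06). *Tuba1a* was at 6.03, 9.15 and 7.56 against 27.4, 26.4 and 33.4 CPM (log2 fold change 1.94, SE 0.20, adjusted p = 5.97e-05). The tubulin folding cofactor *Tbcc* was at 99.9, 109 and 105 against 266, 310.2 and 319 CPM (log2 fold change 1.51, SE 0.093, adjusted p = 3.54e-06). Guanine nucleotide exchange factors changed in both directions. *Dock2*, known from leukocyte migration, was at 25.9, 31.1 and 25.7 against 2.70, 3.45 and 1.10 CPM (log2 fold change -3.50, SE 0.33, adjusted p = 4.11e-05). *Dock10* was at 24.8, 40.4 and 30.1 against 2.55, 4.90 and 2.40 CPM (log2 fold change -3.27, SE 0.30, adjusted p = 3.64e-05). *Arhgef40* was at 3.11, 2.86 and 3.55 against 23.5, 37.1 and 22.7 CPM (log2 fold change 3.13, SE 0.24, adjusted p = 1.22e-05). In endosomal traffic a tethering gene rose and sorting nexins fell. *Vps33a*, of the tether between endosome and lysosome, was at 108, 95.2 and 109.9 against 299, 265 and 287 CPM (log2 fold change 1.44, SE 0.091, adjusted p = 4.14e-06). *Snx5* was at 291, 344 and 339 against 132, 123.2 and 132 CPM (log2 fold change -1.33, SE 0.089, adjusted p = 5.92e-06). *Snx10* was at 17.9, 18.7 and 21.9 against 8.15, 6.55 and 7.67 CPM (log2 fold change -1.39, SE 0.18, adjusted p = 0.000307).

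At the cell surface, genes shared with other blood cells fell and rose. *Ptprc* encodes the pan-leukocyte phosphatase CD45 and was at 35.2, 36.6 and 40.3 against 8.05, 15.1 and 7.93 CPM (log2 fold change -1.85, SE 0.24, adjusted p = 0.000296). *Plxnc1*, a semaphorin receptor, was at 49.2, 70.1 and 64.6 against 7.43, 11.4 and 19.2 CPM (log2 fold change -2.28, SE 0.29, adjusted p = 0.000284). *Cd9*, a tetraspanin counted among the megakaryocyte markers, was at 6.23, 6.01 and 5.61 against 36.3, 23.3 and 20.8 CPM (log2 fold change 2.17, SE 0.23, adjusted p = 8.13e-05). Outside the cell, the matrix glycoprotein *Emilin2* rose (83.3, 80.8 and 89.5 against 247, 264 and 357 CPM, log2 fold change 1.78, SE 0.14, adjusted p = 1.03e-05). Among G protein-coupled receptor genes *Gpr146* rose (13.1, 15.8 and 12.1 against 90.9, 89.7 and 68.4 CPM, log2 fold change 2.60, SE 0.16, adjusted p = 3.54e-06). *Ramp1*, which modifies receptors of the calcitonin family, was at 31.03, 37.6 and 32.5 against 4.26, 4.32 and 2.09 CPM (log2 fold change -3.24, SE 0.26, adjusted p = 1.41e-05). *S1pr4*, a receptor of sphingosine-1-phosphate, was at 71.7, 80.5 and 76.5 against 37.2, 22.04 and 32.02 CPM (log2 fold change -1.33, SE 0.17, adjusted p = 0.000311). Of the secreted factors, oncostatin M (*Osm*) was at 15.7, 19.7 and 23.99 against 43.4, 47.3 and 42.97 CPM (log2 fold change 1.17, SE 0.16, adjusted p = 0.000434). *Angptl4*, an inhibitor of lipoprotein lipase, was at 93.6, 84.1 and 90.5 against 30.96, 33.3 and 34.1 CPM (log2 fold change -1.45, SE 0.10, adjusted p = 7.99e-06).

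Genes of antigen presentation were 1 higher and 8 lower of 32 (median -0.37). *H2-Q6* was at 87.9, 113 and 83.3 against 48.9, 18.2 and 26.96 CPM (log2 fold change -1.60, SE 0.30, adjusted p = 0.0023). *H2-Q10* was at 21.1, 16.6 and 19.6 against 7.01, 8.64 and 5.63 CPM (log2 fold change -1.43, SE 0.21, adjusted p = 0.000576). Both belong to a family of near-identical genes whose reads cannot be assigned with certainty. Interferon-stimulated genes did not move in 1 direction, with 11 higher and 9 lower of 59. *Ifit2*, which binds viral RNA, was at 10.6, 17.2 and 14.5 against 32.8, 39.2 and 35.6 CPM (log2 fold change 1.35, SE 0.19, adjusted p = 0.000415). *Rsad2*, the antiviral viperin, was at 13.2, 23.1 and 15.1 against 35.6, 35.8 and 40.6 CPM (log2 fold change 1.13, SE 0.20, adjusted p = 0.00199). Against these, *Ifi44* was at 16.8, 17.8 and 19.98 against 3.12, 3.25 and 6.57 CPM (log2 fold change -2.08, SE 0.29, adjusted p = 0.000448). *Ifi27* was at 86.6, 94.6 and 86.1 against 40.8, 35.5 and 48.2 CPM (log2 fold change -1.10, SE 0.13, adjusted p = 0.000137).

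In the NF-kB class *Traf4* had the largest rise (32.4, 38.8 and 34.7 against 138, 232 and 289 CPM, log2 fold change 2.64, SE 0.23, adjusted p = 2.51e-05). Of the MAP kinase genes, 2 kinases of the RSK family went in opposite directions. *Rps6ka1* was at 66.5, 56.7 and 67.7 against 174, 158 and 199 CPM (log2 fold change 1.47, SE 0.12, adjusted p = 1.23e-05). *Rps6ka3* was at 23.3, 29.5 and 31.03 against 12.5, 13.2 and 9.70 CPM (log2 fold change -1.24, SE 0.18, adjusted p = 0.000566).

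Chromatin regulators changed singly. Histone deacetylases went both ways, also among relatives of class IIa such as *Hdac5* and *Hdac7*. *Hdac5* was at 5.55, 4.40 and 5.73 against 14.2, 12.3 and 14.5 CPM (log2 fold change 1.38, SE 0.21, adjusted p = 0.000671). *Hdac7* was at 115, 109 and 103 against 33.7, 23.5 and 18.98 CPM (log2 fold change -2.11, SE 0.19, adjusted p = 2.59e-05). *Hdac2*, of class I, was at 34.7, 47.4 and 47.2 against 22.96, 19.3 and 21.6 CPM (log2 fold change -1.02, SE 0.16, adjusted p = 0.0008). Among writers of marks, the acetyltransferase *Ep300* was at 32.2, 34.3 and 33.8 against 69.3, 64.2 and 52.6 CPM (log2 fold change 0.89, SE 0.13, adjusted p = 0.000531). *Ezh2*, which methylates H3K27, was at 60.2, 49.8 and 51.01 against 28.98, 36.1 and 32.4 CPM (log2 fold change -0.72, SE 0.13, adjusted p = 0.00216). Both de novo DNA methyltransferases fell. *Dnmt3a* was at 40.2, 34.3 and 36.2 against 20.8, 17.9 and 20.5 CPM (log2 fold change -0.90, SE 0.14, adjusted p = 0.000682). *Dnmt3b* was at 23.5, 22.99 and 24.9 against 14.9, 14.5 and 12.7 CPM (log2 fold change -0.76, SE 0.15, adjusted p = 0.00297).

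ZBTB and KLF factors were 12 higher and 4 lower of 48 (median 0.31). *Klf11* was at 62.9, 50.2 and 63.4 against 172, 124 and 135 CPM (log2 fold change 1.29, SE 0.14, adjusted p = 0.000102). *Klf6* was at 28.1, 34.1 and 25.9 against 10.7, 14.1 and 17.3 CPM (log2 fold change -1.06, SE 0.20, adjusted p = 0.00236). The zinc finger genes with a numbered Zfp symbol, the largest family of factors in the table, were 19 higher and 24 lower of 264. The MYC and bHLH network held 4 higher and 3 lower of 28 (median -0.13). *Mxd1*, an antagonist of MYC, was at 35.5, 32.4 and 33.3 against 79.7, 86.1 and 77.2 CPM (log2 fold change 1.26, SE 0.11, adjusted p = 1.80e-05). *Hif1a*, a hypoxia factor, was at 59.1, 46.2 and 68.5 against 21.6, 31.997 and 30.5 CPM (log2 fold change -1.05, SE 0.19, adjusted p = 0.00183). *Hif3a* was at 36.6, 30.03 and 33.5 against 5.61, 4.27 and 6.47 CPM (log2 fold change -2.62, SE 0.19, adjusted p = 8.66e-06).

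Of the DEGs, 1012 belonged to a class and 1619 to none. Among the latter, at an average of 3 or more on the log2 CPM scale and with groups that did not overlap, large rises came from enzymes and secreted proteins of varied function. *Aldh3b2*, an aldehyde dehydrogenase, was at 0.958, 1.72 and 2.46 CPM in control CFU-E and at 67.01, 73.8 and 104 CPM in CFU-E Kit-lo (log2 fold change 5.59, SE 0.30, adjusted p = 1.58e-06). *Tinagl1*, a secreted matrix protein, was at 20.3, 21.7 and 25.7 against 259, 259 and 337 CPM (log2 fold change 3.66, SE 0.14, adjusted p = 2.34e-07). *Ctsf*, a cathepsin, was at 5.36, 3.72 and 7.67 against 66.5, 64.2 and 63.5 CPM (log2 fold change 3.54, SE 0.22, adjusted p = 4.19e-06). The rest include genes of nucleotide use, traffic and actin. *Rab3il1*, an exchange factor for Rab3, was at 10.9, 7.89 and 9.68 against 99.7, 106 and 109.7 CPM (log2 fold change 3.47, SE 0.14, adjusted p = 2.54e-07). *Gmpr*, which converts GMP to IMP, was at 3.50, 5.49 and 5.15 against 56.7, 34.3 and 30.8 CPM (log2 fold change 3.11, SE 0.27, adjusted p = 2.61e-05). *Ssh1*, a phosphatase of cofilin, was at 11.5, 14.5 and 14.9 against 104, 92.9 and 61.5 CPM (log2 fold change 2.66, SE 0.20, adjusted p = 1.03e-05).

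Large falls outside the classes included genes of receptor signalling. *Sash3*, a lymphocyte adaptor, was at 69.1, 85.96 and 81.5 CPM in control CFU-E and at 6.91, 10.97 and 12.3 CPM in CFU-E Kit-lo (log2 fold change -2.97, SE 0.20, adjusted p = 6.53e-06). *Grb10*, an imprinted adaptor of receptor tyrosine kinases, was at 129.7, 142 and 163 against 27.5, 22.3 and 21.6 CPM (log2 fold change -2.61, SE 0.13, adjusted p = 1.28e-06). *Il31ra*, a cytokine receptor chain, was at 33.2, 53.6 and 43.6 against 1.56, 3.30 and 1.93 CPM (log2 fold change -4.25, SE 0.29, adjusted p = 6.38e-06). The others named have unlike roles. *Muc13*, a membrane mucin, was at 40.3, 48.8 and 63.6 against 7.53, 7.43 and 2.92 CPM (log2 fold change -3.09, SE 0.32, adjusted p = 7.00e-05). *Ptpn14*, a phosphatase, was at 29.2, 40.3 and 36.1 against 3.84, 3.30 and 5.16 CPM (log2 fold change -3.10, SE 0.21, adjusted p = 6.86e-06).

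DEGs were not spread evenly over gene properties. By average expression, the share called was smallest in the lowest quintile (5.3% higher and 6.05% lower) and largest for rises in the middle one (16.6% higher and 12.3% lower). By the length of the longest annotated transcript of protein-coding genes the quintiles differed little, from 14.2% higher in the shortest to 11.4% in the longest. By its GC content the quintiles differed more. Of the genes with 31.0 to 43.2% GC, 6.3% were higher and 10.7% lower, and of those with 55.0 to 70.0% GC, 21.1% were higher and 7.88% lower, with median log2 fold changes of -0.07 and 0.18. The gap in level between the highest and the lowest GC quintile, relative to the mean of all 6 libraries, was -0.07, -0.12 and -0.15 (log2 scale) for control CFU-E replicates 1 to 3 and 0.24, 0.07 and 0.08 for the CFU-E Kit-lo replicates. When each library's deviation along GC content was taken out by an offset, which also takes out any true difference of that shape, 1363 genes were higher and 1194 lower, and 1276 and 1054 of these were DEGs of the same direction without it. The part that GC content of the libraries has in the result was not tested further. Pseudogenes, at 3.84% higher and 6.24% lower of 417, were called less often than protein-coding genes at 12.4% and 9.96%. By chromosome, the share higher ran from 7.96% on X and 8.45% on 18 to 14.9% on 4 and 15.6% on 11, and the share lower was highest on X at 15.6% among chromosomes with more than 20 genes tested.

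**Figure D5:**
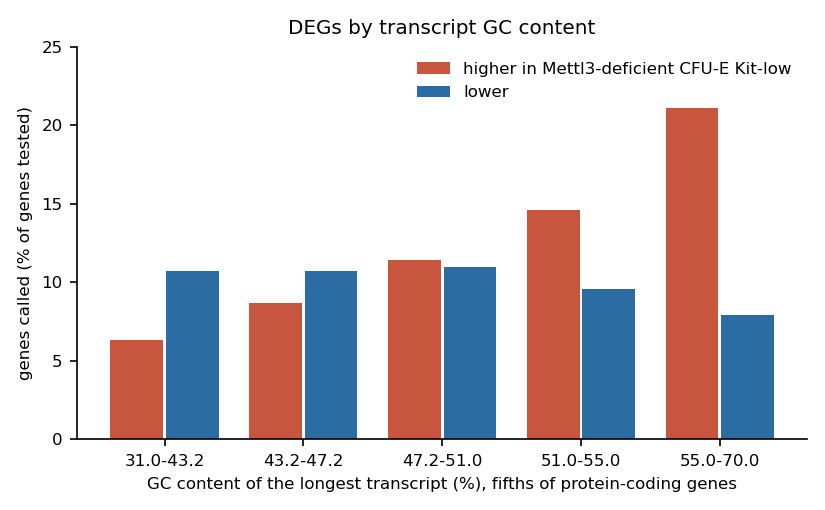
Percent of protein-coding genes called higher (red) or lower (blue) in CFU-E Kit-lo in quintiles of the GC content of the longest transcript. The share called higher rises from 6.3% in the lowest to 21.1% in the highest quintile, while the share called lower goes from 10.7% to 7.88%.

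In a separate experiment on control CFU-E, 2 IP and 2 input libraries were compared (edgeR, own fit, adjusted p under 0.05), and of 11447 genes tested 904 (7.9%) were higher in the m6A IP, called m6A-modified, and 900 (7.86%) lower. Of the m6A-modified genes tested in both experiments (864), 10.3% were higher and 10.2% lower in CFU-E Kit-lo, with a median log2 fold change of -0.06. Of the genes lower in the IP (833), 17.3% were higher and 9.96% lower (median 0.09), and of the remaining 9076 genes, 12.1% and 10.5% (median 0.00). The classes also differed in transcript length, with a median longest transcript of 4392 bases for m6A-modified genes, 2733 for those lower in the IP and 3419 for the rest, and in average log2 CPM, with medians of 5.80, 4.23 and 4.95. The differences between these shares were not tested, and the m6A calls rest on few libraries, since without the first input library 164 genes were m6A-modified and 427 lower in the IP.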

How the data were processed

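RNA was amplified with an oligo-dT primer by Smart-Seq2, without molecular identifiers, and sequenced as paired reads. The deposited table holds estimated counts per gene that the authors made with fastp 0.23.4, kallisto 0.48.0 and tximport, on mm10 per the methods, while the submitters' processing notes name both mm10 and GRCm39. How counting treated strand is not given in the sources used here, so reads of a gene and an overlapping antisense gene cannot be told apart. The m6A IP and input tables hold estimated counts of the same kind, 19421059 to 37142742 per library, from the authors' super-low-input m6A protocol.

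The counts, whole numbers as deposited, were tested in R 4.3.3 with the quasi-likelihood method of edgeR 4.0.16 after filterByExpr and TMM scaling, with Benjamini-Hochberg adjustment over all 11979 genes tested, on 3 against 3 libraries without covariates. CPM of single libraries carry counting error besides the spread between libraries, most of it at low levels. The biological coefficient of variation was 19.1%, the correlation of log levels was 0.967 to 0.983 within groups and 0.934 to 0.94 between them, and no pair of libraries was identical. The fit was tested on simulated counts first. Gene coordinates are those of GRCm38.p6, and 15376 of 15386 genes matched the annotation.

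The comparison, the 91 gene classes and the promoters shown were chosen with earlier results of these data known. In each class the text draws on up to 3 called genes with the greatest rise and 3 with the greatest fall that averaged 3 or more on the log2 CPM scale and did not overlap between groups, and the same for 15 rises and 15 falls outside the classes, besides *Mettl3*, *Kit*, *Slc4a1*, *Gata2* and the markers of other cells. *Igll1* and *Ighm* fall under the part of this rule for a class with no such gene. *Ddx3y*, *Eif2s3y*, *Uty*, *Kdm5d*, *Epor*, *Socs1*, *Socs2* and *Socs3* lie outside it and were chosen after their values were seen.

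Alternatives were DESeq2 1.42.0, other scalings and count filters, other fold thresholds, a replicate block, leaving out each library, and offsets for GC content, the last (like the GC quintiles) chosen after seeing the data. Shares of promoter motifs among DEGs were not given, since 9309 of the 11979 genes tested (77.7%) had a promoter in the RefSeq table used, under the 80% set for such a check. Results for a few genes and 1 class are not reported here.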

Additional observations from a re-analysis of the deposited data

How the results depend on the processing

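DEG counts stayed within 1.5 times those reported (1453 higher and 1178 lower) with DESeq2 (1488 and 1221), DESeq2 size factors, library size alone (1587 and 1015), upper quartile scaling (1330 and 1293), TMM without the erythroid classes, both other count filters, GC offsets (1363 and 1194) and without any 1 library (1201 to 1513 and 979 to 1247). Both moved in a test against a fold of 1.5, to 665 higher and 482 lower. With no fold threshold the lower count moved to 2024, and 2104 were higher. Libraries that share a replicate number did not deviate together (correlations of 0.034, -0.017 and -0.072), and with the replicate block 1370 genes were higher and 1125 lower. In the m6A experiment the block gave 1783 m6A-modified genes and 1755 lower in the IP, where same-numbered libraries correlated at 0.205 over 2 pairs, and leaving out 1 library gave 164 to 1358 and 427 to 968. Among genes that averaged 3 or more on the log2 CPM scale, the share called higher was 20.4% of genes lower in the IP and 13.8% of those in neither m6A class. The cause of these moves was not tested. Of 425 named genes none reversed, and 148 lost their call under at least 1 alternative, 147 of them in the test against a fold of 1.5. Of the 1365 class medians computed under alternatives, 136 moved by more than the replicate SD, and 30 of 91 classes changed sign under some alternative. Of the cytosolic ribosomal proteins 32 were lower with GC offsets, 29 with upper quartile scaling and 19 with library size alone, against 23 reported. Depth limits single genes at low levels, where the lowest expression quintile held the smallest shares of DEGs.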
